A study of Mus musculus with 4 samples.

Results

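The 10 genes described here are the tumor suppressor p53 and a set of its transcriptional targets and senescence genes: Trp53, Mdm2, Cdkn1a, Cdkn2a, Bax, Bbc3, Ccng1, Phlda3, Trp53inp1 and Zmat3. They were found by gene name in the transcript tables of 4 RNA-seq libraries, where they take up 44 of 142604 transcripts, and are 10 of 55401 genes. Each name belonged to 1 gene identifier, and the FPKM (fragments per kilobase of transcript, scaled to the depth of the library) of all its transcripts was summed. The libraries came from the bone marrow of male C57/B6 wild-type mice that received a high-fat diet (HFD) from the age of 8 weeks. Obese mice without training gave 2 libraries (Ob), and obese mice that exercised gave 2 more (Ob + Exe). All mice first had the HFD to become obese. The Ob + Exe mice then had moderate-intensity treadmill running for 12 weeks while still on the HFD, and the Ob mice had the HFD alone. There was no lean or untrained normal-diet group, so both groups share the HFD. The comparison asks how the marrow of obese mice differed with exercise. The study describes whole tibial marrow collected by centrifugation, whereas the labels also name mesenchymal stem cells and fibroblast.

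p53 is a transcription factor that stress such as DNA damage or oncogene activity stabilizes, mostly at the level of the protein. Mdm2, a ubiquitin ligase, marks p53 for degradation and is itself a p53 target, which closes a negative feedback loop. Active p53 halts the cell cycle through Cdkn1a, which encodes the CDK inhibitor p21, and starts mitochondrial apoptosis through Bax and Bbc3, which encodes Puma. Cdkn2a encodes p16Ink4a, an inhibitor of the cyclin D kinases, and p19Arf, which holds back Mdm2. Both are classic marks of senescence, a lasting arrest in which cells secrete cytokines and proteases. In blood-forming tissue p53 is known for its control of stem cell quiescence and of the death of irradiated progenitors.

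The promoters were examined first for the p53 binding motif. The members were chosen by name as p53, its targets and senescence genes, so motifs near their starts are not independent of that choice. RefSeq windows of 300 bases on GRCm38.p6 (250 before and 50 after a start) matched 8 members by symbol with 12 windows, and Trp53inp1 and Zmat3 were not matched. The p53 half-site consensus, a 10-base motif that reads the same on both strands, was found in 5 of the 12 windows and in 5 of the 8 members. It was found in 8.36% of all 32851 windows and in 9.55% of the 27025 genes they cover. The 5 windows with a match are shown because they are where the members have this motif in common. Each is printed 5′ to 3′ along the gene with the half-site in capitals and up to 20 bases on either side. None of the 5 stretches overlaps an annotated exon in GENCODE vM21, and only that of Bax lies inside another gene, Gm45808.
Trp53, chr11:69580264-69580313, plus strand: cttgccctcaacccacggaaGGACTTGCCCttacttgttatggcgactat
Mdm2, chr10:117710915-117710964, minus strand: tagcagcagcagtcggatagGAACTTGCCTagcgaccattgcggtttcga
Cdkn1a, chr17:29090886-29090957, plus strand: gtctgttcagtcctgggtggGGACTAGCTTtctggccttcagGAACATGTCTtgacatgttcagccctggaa
Bax, chr7:45467070-45467119, minus strand: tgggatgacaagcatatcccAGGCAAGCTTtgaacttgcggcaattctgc
Ccng1, chr11:40755442-40755491, minus strand: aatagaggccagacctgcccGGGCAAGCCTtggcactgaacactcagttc

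Cdkn1a had 2 half-sites in its window, the first base of which lay 73 and 51 bases before the start, and 2 or more matches occurred in 0.359% of all windows. Its window belongs to the upstream start of the gene, and the window at the downstream start held no match. The first base of the half-site lay 75 bases before the start in Trp53, 185 in Ccng1, 186 in Mdm2 and 201 in Bax. No match was found in the windows of Cdkn2a (2 windows), Bbc3 (3 windows) and Phlda3 (1 window). A match is a description of the letters and not a measured binding site. The log2 fold changes given below (Ob + Exe against Ob) ran from -0.40 to 0.37 for the 5 members with a match and from -0.68 to 0.42 for the 3 members without one, so the ranges overlapped.

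None of the 10 members differed between the groups by the thresholds of the study (a log2 fold change beyond 1 together with p under 0.05 before adjustment), and the members did not move in one direction. Bbc3 and Trp53 had lower values in both Ob + Exe libraries than in both Ob libraries, Mdm2 and Cdkn1a overlapped between the groups, and Cdkn2a was barely detected. All 10 passed the minimum mean FPKM of 0.1. Libraries were scaled by median-of-ratios factors, and log2(FPKM + 0.1) was tested with limma over 18596 genes. Fold changes on this scale understate the change of genes with low values. limma called 3.74% of the genes tested, 510 lower and 186 higher in Ob + Exe, a split of 73.3% lower. That share was 62.8% under quantile normalization and 79.4% without scaling. An unadjusted p under 0.05 was reached by 5.05% of the genes tested and by 0 of the 10 members, and limma voom called 0 members as well. The adjusted p of the members (limma, Benjamini-Hochberg over all genes tested) lay between 0.959 and 0.989, and no gene of the whole table reached an adjusted p under 0.05. Of the members, 5 had a negative and 5 a positive log2 fold change, with a median of -0.05 against -0.02 over all genes tested. With 2 libraries against 2, the smallest two-sided p of an exact permutation test on 1 value is 0.333.

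The libraries held 44310505 to 53038186 read equivalents (mean coverage times transcript length, over reads of 150 bases). Every library lists mitochondrial transcripts at 0, so a listed 0 need not mean an absent transcript. Whether this holds for the zeros of other genes was not tested. The summed scaled FPKM of 13 neutrophil markers was 29025 to 68243 per library and that of 12 erythroid markers 54192 to 82398. The sum of 16 mesenchymal stromal and fibroblast markers was 150 to 205, most of it Cxcl12. The defining stromal gene Pdgfra was at 0.264 to 0.381 FPKM, so the markers went against the fibroblast label, and the libraries are called marrow here. In such bulk samples, fewer cells of a type and less RNA per cell cannot be told apart. p-values here rest on the spread between 2 libraries per group, which limma moderates toward that of genes of similar level. The prior had 3.79 degrees of freedom, against 2 residual ones. The labels do not tie the libraries to separate litters or cages.

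**Figure D1:**
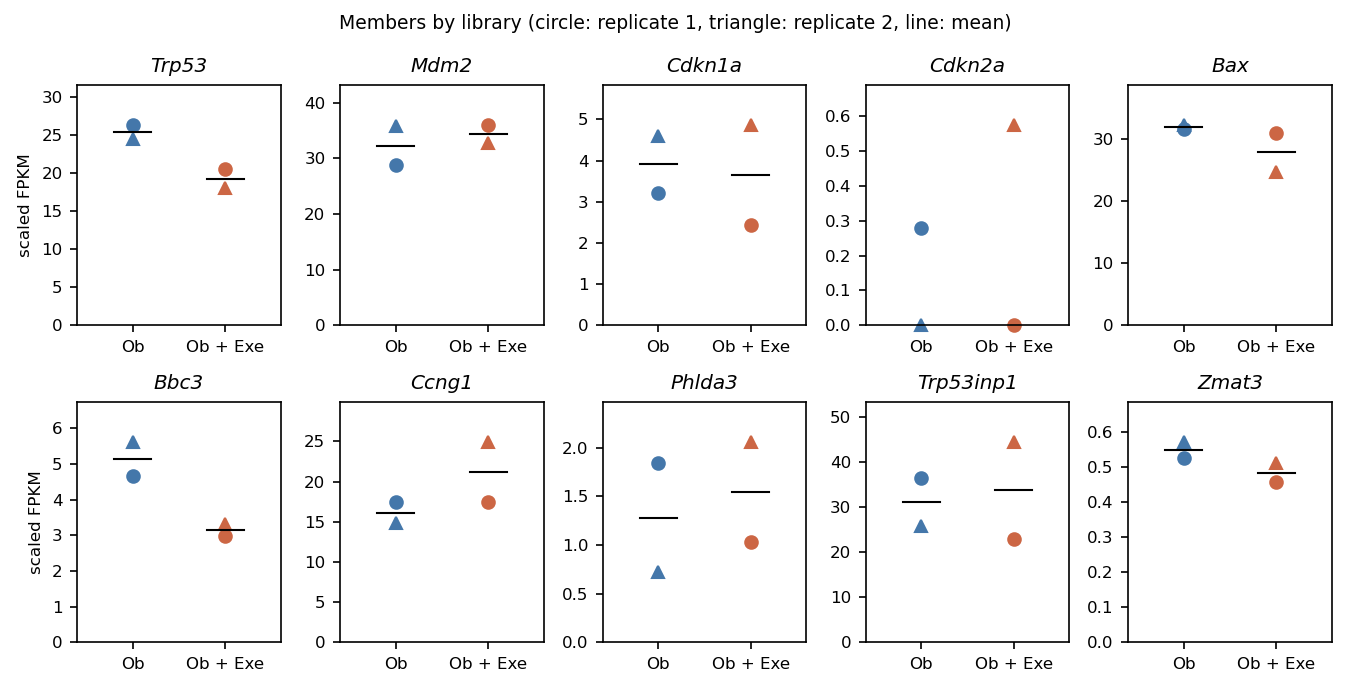
Scaled FPKM (y axis, linear, from 0) of each member in the 2 Ob and 2 Ob + Exe libraries (x axis), with circles for replicate 1, triangles for replicate 2 and lines for group means (no mean is drawn for Cdkn2a, which is listed at 0 in 2 libraries). Trp53, Bax, Bbc3 and Zmat3 had both Ob + Exe points below both Ob points, and the points of Mdm2, Cdkn1a, Cdkn2a, Phlda3 and Trp53inp1 interleaved.

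Trp53, which encodes p53 itself (ENSMUSG00000059552.13, GRCm38 chromosome 11, 69580359 to 69591873, plus strand), had scaled FPKM of 26.3 and 24.5 in Ob, against 20.4 and 18.0 in Ob + Exe. With exercise, both values were below those of Ob. The means were 25.4 ± 1.32 (SD, n = 2) and 19.2 ± 1.71 (SD, n = 2), and the log2 fold change was -0.40 (standard error 0.21, 95% interval -0.92 to 0.12, limma unadjusted p = 0.107). The values rest on 3362 and 3064 read equivalents in Ob and on 2392 and 1854 in Ob + Exe. With 1 library left out at a time the log2 fold change stayed between -0.50 and -0.32. With the highest transcript alone, Trp53-201, it was -0.66 with a larger standard error of 0.46. That transcript had 4.50 FPKM as deposited in Ob + Exe replicate 2, against 10.3 to 11.8 in the others. Wrap53, its neighbour on the opposite strand, ends before Trp53 begins.

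Mdm2, the ubiquitin ligase that removes p53 (ENSMUSG00000020184.15, chromosome 10, 117688875 to 117710758, minus strand), had scaled FPKM of 28.7 and 35.7 in Ob, against 36.0 and 32.8 in Ob + Exe. The groups overlapped, and the log2 fold change was 0.10 (95% interval -0.44 to 0.64). A change of Mdm2 beyond 1 on the log2 scale in either direction thus lay outside the interval. Within a library, where scaling has no effect, the ratio of Mdm2 to Trp53 FPKM was 1.09 and 1.46 in Ob, against 1.76 and 1.82 in Ob + Exe. This ratio was chosen after the values of both genes were seen and was not tested. Of 7 such ratios among members, 3 did not overlap between the groups (Mdm2 to Trp53, Bax to Trp53 and Bbc3 to Bax). The groups overlapped for 4 (Bbc3 to Trp53, Bbc3 to Cdkn1a, Cdkn1a to Trp53 and Cdkn1a to Ccng1). Separation is common with 2 libraries per group. For single genes, the Ob + Exe values lay entirely under the Ob values in 18.3% of those tested and entirely over them in 14.3%. The 7 ratios also share genes, so they are not separate observations, and their count is a description only.

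Cdkn2a, the locus of p16Ink4a and p19Arf (ENSMUSG00000044303.6, chromosome 4, 89274471 to 89294653, minus strand), was listed at 0 in 1 library of each group. The other values were 0.280 scaled FPKM in Ob replicate 1 and 0.576 in Ob + Exe replicate 2, from 17 and 28 read equivalents. All of them were assigned to the transcript Cdkn2a-202, which starts at 89294653 at the upstream first exon, that of p19Arf. Cdkn2a-201, which starts at 89282192 at the first exon of p16Ink4a, was listed at 0 in all 4 libraries. The interval of the log2 fold change, -2.69 to 3.52, was the widest of the members, so a difference in Cdkn2a was not detectable at this depth. The division of reads between these transcripts is an estimate, since they share their other exons.

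Bax and Bbc3 carry the apoptotic arm. Bbc3 (ENSMUSG00000002083.13, chromosome 7, 16308393 to 16318205, plus strand), which encodes Puma, a BH3-only protein that neutralizes the survival members of the BCL2 family, had scaled FPKM of 4.66 and 5.62 in Ob, against 2.99 and 3.32 in Ob + Exe. Neither Ob + Exe value reached the lower Ob value, and on the log2(FPKM + 0.1) scale the fitted difference was the largest in size among the members. The means were 5.14 ± 0.683 (SD, n = 2) and 3.16 ± 0.236 (SD, n = 2), and the log2 fold change was -0.68 (standard error 0.30, 95% interval -1.43 to 0.06, limma unadjusted p = 0.0667). A lower fold change was found for 15.5% of all genes tested. Without scaling the unadjusted p of Bbc3 in limma was 0.0455, with a log2 fold change of -0.77 that was still within 1.

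Bax, the pore-forming protein of the mitochondrial outer membrane (ENSMUSG00000003873.11, chromosome 7, 45461697 to 45466898, minus strand), had scaled FPKM of 31.7 and 32.3 in Ob, against 31.1 and 24.7 in Ob + Exe. Both Ob + Exe libraries were again lower, but Ob + Exe replicate 1 lay close to the Ob libraries. The log2 fold change was -0.21 (95% interval -0.74 to 0.33), and it was -0.05 without Ob + Exe replicate 2 and -0.38 without Ob + Exe replicate 1. Gm45808, on the same strand, shares 192 exon bases with Bax and had 0.021 to 0.27 FPKM.

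The Ob + Exe values were both under the lower Ob value for 4 of the 10 members (Trp53, Bax, Bbc3 and Zmat3), against 18.3% of all genes tested, and both over the higher Ob value for 1 member (Ccng1), against 14.3%. With 10 genes these counts are a description of the members only. The 4 separations were also present in the FPKM as deposited, and that of Ccng1 was not.

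Of the other BCL2 family genes, 14 of 16 passed the minimum, with 7 negative and 7 positive log2 fold changes, a median of -0.05 and no call in either direction. Mcl1, a survival protein of short half-life in myeloid cells, was the most abundant, with scaled FPKM of 108 and 106 in Ob, against 140 and 175 in Ob + Exe. Its log2 fold change was 0.54 (limma unadjusted p = 0.0446, adjusted p = 0.959), and it was the 1 gene of the list with an unadjusted p under 0.05. Bcl2l1, which encodes the survival protein Bcl-xL, had a log2 fold change of -0.33, and Bid, a BH3-only protein, had one of 0.02. The summed list was 261 and 271 in Ob, against 279 and 326 in Ob + Exe, with Mcl1 its largest part.

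Cdkn1a and Ccng1 belong to the cell cycle arm. Cdkn1a (ENSMUSG00000023067.14, chromosome 17, 29090976 to 29100727, plus strand), the most used readout of p53 activity, had scaled FPKM of 3.21 and 4.61 in Ob, against 2.44 and 4.87 in Ob + Exe. The groups overlapped, and the lowest and the highest value were both from Ob + Exe. The means were 3.91 ± 0.99 (SD, n = 2) and 3.65 ± 1.72 (SD, n = 2), and the log2 fold change of -0.15 (95% interval -1.24 to 0.93) was smaller than its standard error of 0.44. It turned positive, at 0.33, without Ob + Exe replicate 1 and, at 0.09, without Ob replicate 2. 1700023B13Rik overlaps its span on the opposite strand, shares 0 exon bases with it and had at most 0.125 FPKM.

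Ccng1 (ENSMUSG00000020326.7, chromosome 11, 40748552 to 40755311, minus strand) encodes cyclin G1, which recruits a phosphatase to Mdm2. Its scaled FPKM was 17.5 and 14.8 in Ob, against 17.5 and 24.9 in Ob + Exe. The log2 fold change was 0.37 (95% interval -0.28 to 1.03, limma unadjusted p = 0.207), and it was 0.11 without Ob + Exe replicate 2, 0.25 without Ob replicate 2 and 0.62 without Ob + Exe replicate 1. Ob replicate 1 and Ob + Exe replicate 1 differed only in the fourth digit, and the groups overlapped in the FPKM as deposited.

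Of 9 other CDK inhibitor and Rb family genes 8 passed the minimum, 3 with a negative and 5 with a positive log2 fold change (-0.15 to 0.53), and 0 were called or had an unadjusted p under 0.05 in limma. In this list the groups overlapped for all 8. Cdkn2d, which encodes p19Ink4d and not p19Arf, had scaled FPKM of 86.7 and 82.1 in Ob, against 76.1 and 117 in Ob + Exe. Cdkn1b, which encodes p27, had a log2 fold change of 0.09, and Cdkn2c, which encodes p18Ink4c, had one of 0.000597. Cdkn2b, the neighbour of Cdkn2a that encodes p15Ink4b, was below the minimum.

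Trp53inp1, Phlda3 and Zmat3 act on autophagy, survival signaling and RNA. Trp53inp1 (ENSMUSG00000028211.11, chromosome 4, 11156431 to 11174379, plus strand), a stress protein that takes part in autophagy, had scaled FPKM of 36.4 and 25.8 in Ob, against 22.9 and 44.4 in Ob + Exe. The range within Ob + Exe enclosed both Ob values, and the log2 fold change was 0.06 (95% interval -0.86 to 0.97). Its sign was not fixed: it was -0.031 without scaling and -0.00278 under quantile normalization.

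Phlda3 (ENSMUSG00000041801.5, chromosome 1, 135766119 to 135769136, plus strand), a small PH domain protein that restrains Akt, had scaled FPKM of 1.84 and 0.72 in Ob, against 1.03 and 2.06 in Ob + Exe. The highest value was 2.86 times the lowest, and the log2 fold change of 0.31 was smaller than its standard error of 0.62. Zmat3 (ENSMUSG00000027663.12, chromosome 3, 32334792 to 32366014, minus strand), a zinc finger protein that binds RNA and affects splicing, had scaled FPKM of 0.527 and 0.573 in Ob, against 0.458 and 0.514 in Ob + Exe. These values lay close together over 4 libraries, with a highest value 1.25 times the lowest. The log2 fold change of Zmat3 was -0.15 (95% interval -1.52 to 1.22). Its standard error was 0.55, and 0.27 in limma without the intensity trend, so the interval rests partly on other genes of similar level.

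Trp53inp1, Phlda3 and Cdkn2a shared an order of the libraries: Ob replicate 1 and Ob + Exe replicate 2 were above Ob replicate 2 and Ob + Exe replicate 1. This order was found for 3 of the 10 members and for 21.3% of all genes tested. The summed scaled FPKM of the 13 neutrophil markers had it too, with 51199 and 29025 in Ob, against 37914 and 68243 in Ob + Exe, and none of these markers was at 0. Among them Camp, Elane, Prtn3 and Mpo did not have this order. The erythroid sums had it as well (73369 and 73129 in Ob, against 54192 and 82398 in Ob + Exe), as did the plasma cell and the monocyte and macrophage sums. Of the erythroid markers only Hbb-bs, Slc4a1 and Rhag had this order, and the erythroid sums in Ob were close. Of the plasma cell markers only Jchain, Xbp1 and Sdc1 had it, and of the monocyte and macrophage markers only Ly6c2. The part of any of these cell types in the values of the 3 members was not tested.

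**Figure D2:**
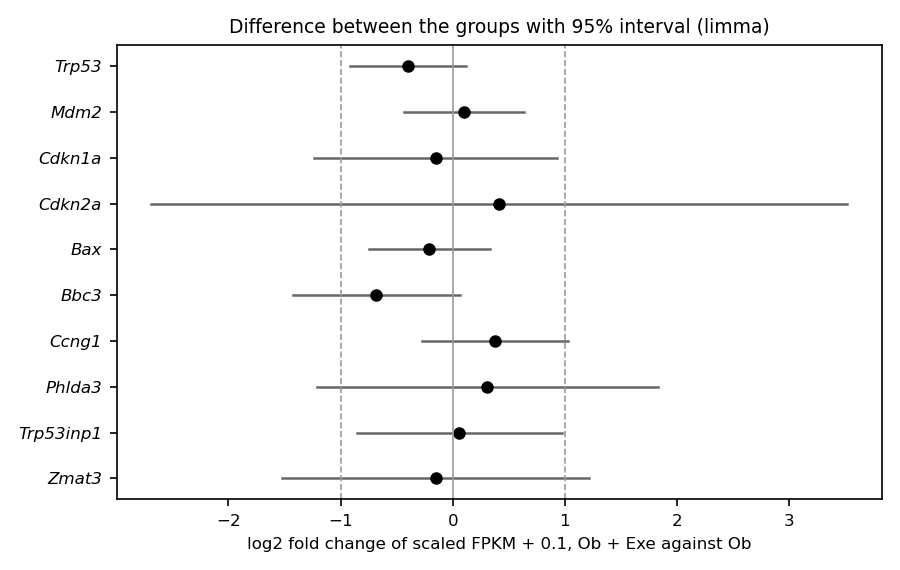
The log2 fold change of scaled FPKM + 0.1 (x axis, Ob + Exe against Ob) of each member, with bars for the 95% interval from limma and dashed lines at a change of 1 in either direction. Every interval includes 0, and those of Trp53, Mdm2, Bax and Trp53inp1 lie within the dashed lines.

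The levels of the members spread widely. By FPKM, which is per length, Mdm2 (mean over 4 libraries 33.3), Trp53inp1 (32.4), Bax (30.0), Trp53 (22.3) and Ccng1 (18.7) were the most abundant, and in this order each overlapped with the next. A gap followed, since the lowest Ccng1 value of 14.8 was above the highest Bbc3 value of 5.62. Bbc3 (mean 4.15) and Cdkn1a (3.78) overlapped. Phlda3 (1.41) lay below the lowest Cdkn1a value, and Zmat3 (0.518) below the lowest Phlda3 value, while Zmat3 and Cdkn2a overlapped. Among the 18596 genes tested the mean level of Mdm2 was at percentile 89.4, that of Trp53 at 83.7, that of Cdkn1a near the middle at 51.3 and that of Cdkn2a at 11.4. The marrow of both groups thus held abundant mRNA for p53 and its ligase, a middling level of the arrest gene Cdkn1a and little Cdkn2a.

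The estimated division among transcripts differed between libraries for some members (values are FPKM as deposited). Trp53inp1-201, the coding transcript, had 25.2 and 19.5 FPKM in Ob and 36.1 in Ob + Exe replicate 2, but was listed at 0 in Ob + Exe replicate 1. In that library 22.5 FPKM were assigned to Trp53inp1-202, annotated as a processed transcript without a coding sequence, which had 3.67 to 10.7 FPKM in the others. Cdkn1a showed the same in the same library, where all 2.45 FPKM were assigned to Cdkn1a-205. In the other 3 libraries Cdkn1a-201 held 3.08 to 3.83 FPKM and Cdkn1a-205 was listed at 0. Both Cdkn1a transcripts are annotated as coding, and the shorter Cdkn1a-203 had at most 0.359 FPKM. Cdkn1a-202, which starts beside the half-sites printed above, had 0 to 0.759 FPKM, so most of the Cdkn1a signal was assigned to the downstream start. Whether the assignment in Ob + Exe replicate 1 reflects the transcripts present was not tested.

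Bax-201 had 12.4 and 6.11 FPKM in Ob, against 3.45 and 2.56 in Ob + Exe, and Bax-203 had 18.9 and 25.4 in Ob, against 24.7 and 19.0 in Ob + Exe. Bax-201 was thus lower in both Ob + Exe libraries. The groups overlapped for Bax-203, with which alone the log2 fold change of Bax was 0.027, although Ob + Exe replicate 2 was below Ob replicate 2 for it too. The division of reads between Bax-201 and Bax-203 is an estimate, and it also differed between the Ob libraries. Bax-205 and Bax-206 had at most 1.75 FPKM each. For Trp53, the coding transcript Trp53-203 was lower in Ob + Exe (7.96 and 8.40 in Ob, 4.97 and 5.95 in Ob + Exe). Trp53-201 was lower as deposited (11.8 and 10.7 in Ob, 10.3 and 4.50 in Ob + Exe). Its groups overlap once Ob replicate 2 and Ob + Exe replicate 1 are divided by their scaling factors (1.04 and 1.005). Of the smaller coding transcripts, Trp53-206 was also lower in Ob + Exe (2.96 and 2.62 in Ob, 1.45 and 2.07 in Ob + Exe), whereas Trp53-202 overlapped, at 1.03 to 3.43. Trp53-205, which has no coding sequence, was highest in Ob + Exe replicate 1, at 2.76 FPKM against 1.01 to 1.49 in the others. Mdm2 was mostly Mdm2-201, at 22.7 to 34.3 FPKM, and Mdm2-202 was above 0.02 FPKM only in Ob replicate 1, at 3.01. Mdm2-204 and Mdm2-205, which retain introns, had 0.955 to 3.31 FPKM. Bbc3-204 had at most 0.325 FPKM, and Bbc3, Ccng1, Phlda3 and Zmat3 were each held by 1 coding transcript, with at least 92.9% of the gene in every library.

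**Figure D3:**
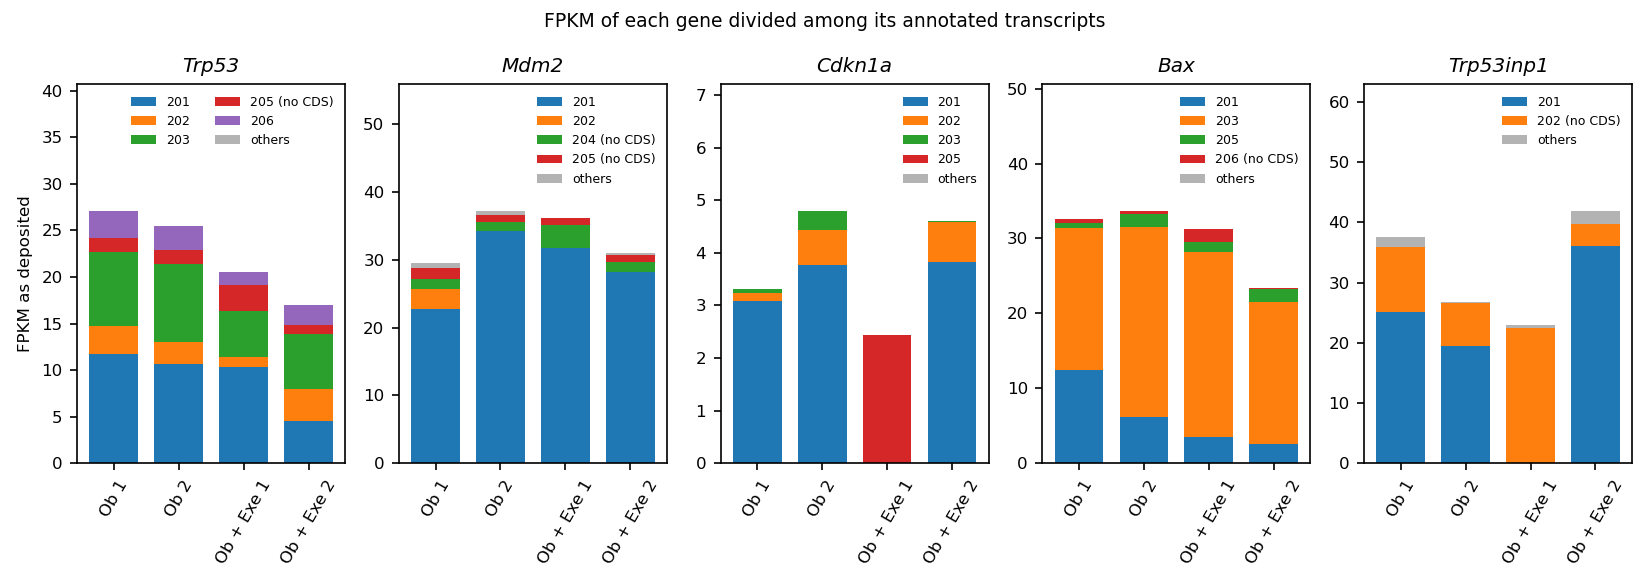
FPKM as deposited (y axis, linear, from 0) of 5 members in each library (x axis), divided by color among transcripts that held at least 5% of the gene in any library, with the rest in gray; transcripts without a coding sequence are marked no CDS. In Ob + Exe replicate 1, Trp53inp1 and Cdkn1a were assigned mostly to transcripts (Trp53inp1-202 and Cdkn1a-205) that held less in the other 3 libraries. Bax-201 decreases from 12.4 in Ob replicate 1 to 2.56 in Ob + Exe replicate 2.

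Genes that act on p53 were examined as a list of 24, all of which passed the minimum. No gene of the list was called, 13 had a negative and 11 a positive log2 fold change, and the median was -0.04. Rpl5 and Rpl11, ribosomal proteins that bind Mdm2 when ribosome assembly is disturbed, had log2 fold changes of -0.20 and -0.07 (both have many near-identical pseudogenes, so their values are uncertain), and Usp7, which removes ubiquitin from p53 and Mdm2, had one of 0.033. Pml, the scaffold of nuclear bodies in which p53 is modified, was at 35.4 and 37.7 in Ob, against 27.7 and 22.9 in Ob + Exe. For Pml the log2 fold change was -0.54 (limma unadjusted p = 0.0456, adjusted p = 0.959). No other gene of the list had an unadjusted p under 0.05.

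Of 40 other p53 targets 39 passed the minimum, and 0 were called, 20 having a negative and 19 a positive log2 fold change with a median of -0.01. The 3 most abundant were Sat1, a polyamine enzyme (log2 fold change 0.24), Gadd45a, a DNA damage response protein (-0.13), and Btg2, an antiproliferative protein (0.28). An unadjusted p under 0.05 was found for 2 of the 39 genes, Klf4 and Steap3, and neither passed the fold change threshold. Klf4, a transcription factor of monocytes that inhibits proliferation, was at 9.35 and 10.2 in Ob, against 5.16 and 5.50 in Ob + Exe. Steap3, which is also the iron reductase of erythroblasts, was at 19.0 and 15.7 in Ob, against 6.28 and 11.7 in Ob + Exe. Both genes were lower in both Ob + Exe libraries.

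Factors that senescent cells secrete were examined as a list of 36, many of which other marrow cells make too. Of these 27 passed the minimum, of which 2 were called lower and 1 higher, and the median log2 fold change was -0.03. Il1b, an inflammatory cytokine of myeloid cells, was higher in Ob + Exe, with scaled FPKM of 24.1 and 25.5 in Ob, against 56.9 and 69.2 in Ob + Exe (log2 fold change 1.34, limma unadjusted p = 0.000795, adjusted p = 0.794). Spp1, the matrix protein osteopontin, was lower, at 30.2 and 44.7 in Ob, against 14.5 and 19.9 in Ob + Exe (log2 fold change -1.11, limma adjusted p = 0.959). Mmp13, a collagenase of bone, was lower as well, at 4.09 and 5.96 in Ob, against 2.05 and 1.29 in Ob + Exe (log2 fold change -1.54, limma adjusted p = 0.959). Spp1 was no longer called without Ob replicate 2 (-0.84) or Ob + Exe replicate 1 (-0.89), nor with its highest transcript alone. Mmp13 was no longer called without Ob replicate 1 (-1.82), Ob replicate 2 (-1.29) or Ob + Exe replicate 2 (-1.24), while Il1b was called in every alternative. Beside these, 6 osteoblast markers summed to 15.1 and 23.2 in Ob, against 13.7 and 13.8 in Ob + Exe. Bglap2 was called lower from low values (1.12 and 3.39 in Ob, against 0 and 0.721 in Ob + Exe). Runx2 and Sp7 were lower in both Ob + Exe libraries, whereas Ibsp, Bglap and Alpl overlapped between the groups. Dmp1 and Sost were under the minimum. The part of osteoblasts in the lower values of Spp1 and Mmp13 was not tested. Tgfb1 had a log2 fold change of -0.65 (limma unadjusted p = 0.0238) and was not called. Cxcl1, Csf2, Csf3 and Mmp3 were among the 9 genes below the minimum.

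Of 20 genes of senescence and chromatin, 18 passed the minimum, H2afx was not matched by that symbol, and 12 of the 18 had a negative log2 fold change (median -0.11). The 1 called gene was Ets2, a transcription factor that can induce Cdkn2a, with scaled FPKM of 4.57 and 3.60 in Ob, against 7.44 and 11.1 in Ob + Exe. Its log2 fold change of 1.15 (limma adjusted p = 0.959) was within 1 with a pseudocount of 1 and with limma voom (0.93), and Ets2 was also not called with its highest transcript alone (0.53) or without Ob replicate 1 (1.31), Ob replicate 2 (0.97) or Ob + Exe replicate 2 (0.85). Over the 154 genes tested in the 7 related lists limma called 4, a smaller share than the 3.74% of all genes tested, and limma voom also called 4, with Ets2 not among them. Lmnb1, a nuclear lamina gene whose loss marks senescent cells, had a log2 fold change of 0.05, and its groups overlapped. Hmgb2, a chromatin protein of dividing cells, was at 332 and 278 in Ob, against 198 and 251 in Ob + Exe and was not called. Hmga1 had a log2 fold change of -0.71 (limma unadjusted p = 0.041). The summed list was 850 and 771 in Ob, against 676 and 745 in Ob + Exe, and Hmgb2 made up a large part of it.

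Cell division genes, many of which p53 represses through p21, were examined as a list of 25. None was called and none had an unadjusted p under 0.05 in limma, 17 had a negative and 8 a positive log2 fold change, and the median was -0.09. Both Ob + Exe libraries were lower for 7 of the 25 and higher for 2, against 18.3% and 14.3% of all genes tested. Pcna, the sliding clamp of replication, had scaled FPKM of 264 and 267 in Ob, against 207 and 307 in Ob + Exe. Birc5, the mitotic survival protein survivin, and Rrm2, a subunit of ribonucleotide reductase, had log2 fold changes of -0.11 and -0.12, and their groups overlapped too. The summed list was 2128 and 2289 in Ob, against 1847 and 2256 in Ob + Exe, and the groups overlapped.

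**Figure D4:**
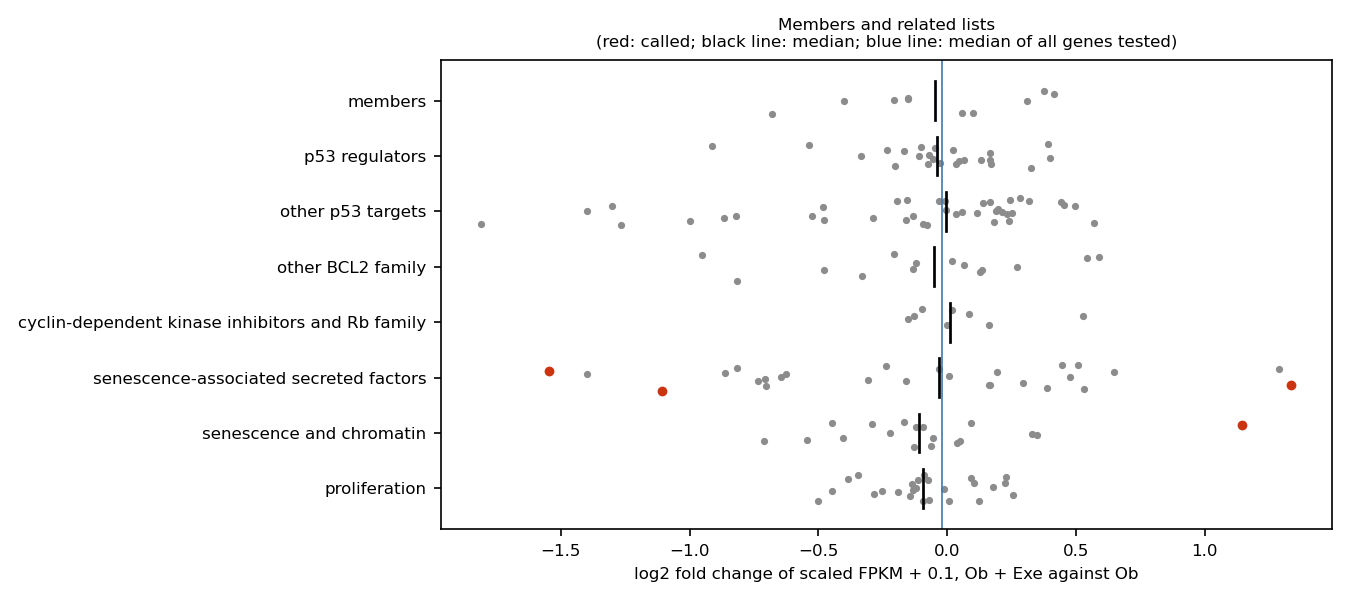
The log2 fold change of scaled FPKM + 0.1 (x axis, Ob + Exe against Ob) of each gene tested in the members and 7 related lists (y axis, 1 row a list), with called genes in red, list medians as black lines and the median of all genes tested, -0.02, as a blue line. The list medians run from -0.11 to 0.01, and the called genes are Il1b, Spp1, Mmp13 and Ets2.

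Cell type markers moved beside the lower values of Trp53 and Bbc3. The 10 B lineage markers summed to 210 and 216 in Ob, against 164 and 132 in Ob + Exe. Both Ob + Exe libraries were lower for 6 of these 10, Cd79a and Igll1 were called lower, and none was at 0. The 8 endothelial markers summed to 27.5 and 23.9 in Ob, against 20.1 and 17.4 in Ob + Exe, with 7 of the 8 lower in both Ob + Exe libraries. Of 10 megakaryocyte and platelet markers 3 were called lower (Tubb1, Gp5 and Gp1ba), and their sums, 508 and 368 in Ob, against 402 and 149 in Ob + Exe, overlapped. The adipocyte markers summed to 81.0 and 85.0 in Ob, against 134 and 111 in Ob + Exe, with Plin1, Plin4 and Lep under the minimum. Fabp4 made up most of these sums, 3 of the 7 tested genes were higher in both Ob + Exe libraries and Retn was called higher, while Adipoq, Pparg, Cfd and Cidec overlapped between the groups. The skeletal muscle markers were higher in Ob + Exe as well, at 15.6 and 16.8 against 11.6 and 7.61 in Ob, with Acta1 called higher and Myh1, Myh2 and Myh4 under the minimum. Of the 16 stromal markers Col1a1 was called lower, and their sums overlapped. The sums of the T and NK cell, monocyte and macrophage, plasma cell, and stem and progenitor lists overlapped between the groups. The part of these cell types in the values of the members was not tested.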

How the data were processed

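The authors checked reads with FastQC, trimmed them with fastp, discarded rRNA reads, used HISAT2 to place the others on GRCm38, passed alignments through SAMtools filters and ran StringTie on the GENCODE vM25 annotation (versions not given in the sources used here). They deposited read coverage (a signal without depth scaling) and FPKM per transcript. Coverage is not a whole number of reads, so the study's DESeq2 was not run.

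Transcript FPKM were summed per gene identifier and genes with a mean of at least 0.1 were kept. Libraries were scaled by median-of-ratios factors (0.945 to 1.04), and log2(FPKM + 0.1) was fitted with limma 3.58.1 (eBayes with trend, R 4.3.3). The fit was tried on simulated data with larger changes than those of the members, in genes of at least 1 FPKM. That trial cannot show how it performs for changes of the members' size. A gene was called at a log2 fold change beyond 1 with p under 0.05 before adjustment. Intervals are limma's moderated 95% intervals. Tables were handled with pandas 2.3.3 in Python 3.11.15, and figures drawn with matplotlib 3.10.9. GENCODE vM21 (also GRCm38) gave transcript types and exons. The library preparation is not described as stranded.

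The members and gene lists were chosen with earlier results of these data known. The genes named are the members, the called genes of each list and, below 3 of these, its most abundant genes, and of marker lists the called or defining genes. Genes with an unadjusted p under 0.05 that were not called and those given as below the minimum were named after their values were seen. Alternatives were other minimums, pseudocounts and scalings, no trend, voom on read equivalents, 1 transcript per gene, the replicate block and leaving out each library. Each library held 44310505 to 53038186 read equivalents, and the precision of group means rests on 2 libraries per group.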

Additional observations from a re-analysis of the deposited data

How the results depend on the processing

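No member was called in any alternative, with the replicate block and the crossed pairing included. Outside the fits that left out a library, 114 of 118 member results kept their direction. The exceptions were Trp53inp1 without scaling (-0.031), under quantile normalization (-0.00278) and with its highest transcript alone (-3.48), and Bax with its highest transcript alone (0.027). That setting also moved Cdkn1a from -0.15 to -2.42 and Trp53 from -0.40 to -0.66, neither of them called. A minimum of 1 FPKM left Zmat3 and Cdkn2a untested. With 1 library left out, the log2 fold change ranged from -0.063 to 0.25 for Mdm2, -0.65 to 0.33 for Cdkn1a, -0.97 to 1.79 for Cdkn2a, -0.32 to 0.92 for Phlda3 and -0.43 to 0.52 for Trp53inp1, and the other 5 members kept their sign. In these fits the lone library was assumed to vary like the other group.

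The number of all genes called (696) became 267 at a minimum of 1 FPKM, where fewer genes were tested, 222 with a pseudocount of 1, 455 with limma voom and 1060 without the intensity trend. It ranged from 746 to 1919 with 1 library left out, with 1264 without Ob + Exe replicate 1 and the 1919 without Ob + Exe replicate 2. The genes called in the related lists (4) became 7 without a minimum and 7 with the highest transcript of each gene, and ranged from 2 to 12 with 1 library left out (2 without Ob replicate 2, 7 without Ob + Exe replicate 1, 12 without Ob + Exe replicate 2). The cause was not tested. The replicate block gave 742 called genes, and 18 genes reached adjusted p under 0.05. The differences of replicate 1 minus replicate 2 had a correlation across genes of -0.106 between the groups, and of -0.235 among genes whose mean reached 1 FPKM. With the crossed pairing, chosen after seeing the data, 803 genes were called, and 11 genes reached adjusted p under 0.05. The labels do not say that the numbers pair mice.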
